A study of Rattus norvegicus with 56 samples.

Results

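The ionotropic glutamate receptors of the AMPA and NMDA classes were followed in the dorsal striatum of rats through their 10 subunit genes Gria1, Gria2, Gria3, Gria4, Grin1, Grin2a, Grin2b, Grin2c, Grin2d and Grin3a. Every probe set whose gene symbol in the array annotation equals one of these names was taken, which gave 19 of the 31099 probe sets on the array. Of the 19, 13 passed a filter on low signal, set at the 40th percentile of the probe sets' means (4.99 on the log2 scale), and were tested. The 6 others were 2 of 3 probe sets of Grin2a, 1 of 2 of Grin2b, both of Grin2d and the single one of Grin3a, and they are given as values. Within a gene, probe sets are numbered from the highest mean signal down, and the figures give the array's own identifier beside each number. Where no number is given for Gria1, Grin2a, Grin2b or Grin2c, the value is that of its 1 tested probe set.

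AMPA receptors, built from the products of Gria1 to Gria4, carry fast excitatory transmission, and the edited Gria2 subunit makes a receptor poorly permeable to calcium. NMDA receptors need the Grin1 subunit, which binds glycine or D-serine, together with Grin2 subunits, which bind glutamate and set the kinetics of the channel, or with Grin3a, which lowers calcium permeability. In the striatum these receptors receive the cortical and thalamic input to spiny projection neurons, whose strength dopamine modulates.

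All 56 animals were male Crl:OFA (Sprague Dawley) rats, with 1 array for each rat, and all had received an AAV vector. In the 28 lesioned rats the vector carried alpha-synuclein and caused a bilateral loss of nigral neurons, whereas in the 28 sham rats it carried GFP. Neither the promoter nor the serotype of the vector is given in the sources used here. From 5 weeks after surgery, rats of each kind received either L-dopa methyl ester at 50 mg/kg with benserazide, or saline, once a day for 3 weeks. They then underwent place conditioning in 40 min sessions with the dopamine D2/D3 receptor agonist pramipexole at 2 mg/kg, or with saline throughout. The brain was taken 24 or 48 h after the last dose, directly after the preference test. Which rats were taken at which time is not given in the sources used here, and no comparison accounts for it. The 3 factors formed 8 groups of 7 rats, and the series asks how the rewarding effect of pramipexole after nigral loss and L-dopa relates to transcription.

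Values are log2 signals, so a difference of 1 is a doubling, and differences are given ± SE from limma. Arrays with sample numbers 1 to 37 and 38 to 56 differ in level for some probe sets, a step that was found from the values and is named in no label. In sham rats given L-dopa alone, the 1 group that spans both, 16 of 18625 probe sets passed an adjusted p of 0.05 (limma, 2 against 5 rats). All lesioned rats, the 7 sham rats given both drugs and 2 of the 7 sham rats given L-dopa alone lie in sample numbers 1 to 37, and the other 19 sham rats lie in 38 to 56. The sham L-dopa group was therefore divided into 2 and 5 rats, giving 9 cells, and drug effects were read inside one set of numbers. Array medians lay between 5.62 and 5.82, and arrays correlated at 0.937 to 0.958. The striatal identity of the tissue was checked on 13 spiny neuron markers, all of them past the filter. Penk averaged 12.20, at the 99.8th percentile of probe sets, Drd1 10.79 and Drd2 9.66. Of the 13 cerebral cortex markers on the array 12 passed the filter, with means from 1.45 (Tbr1) over a median of 6.56 to 12.18 (Sv2b). Of 11 microglia markers 8 passed, with means from 4.69 (Cd68) over 6.67 to 8.85 (C1qa). Sample 2, a lesioned rat given both drugs, stood apart in these: its microglia score, the mean centred signal of the 11 markers, was 2.75, and no other rat was above 0.45. Results that use its group are therefore also given without it where they move.

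No subunit passed the test for a change over the 8 groups. In the F test across the 8 groups (limma, Benjamini-Hochberg adjustment over 18625 probe sets), 0 of 13 member probe sets passed an adjusted p of 0.05, against 1.99% of all those tested. At an unadjusted p under 0.05 there was 1 of 13, Grin2b, against 15.7% of all. Adjusted p of the members ran from 0.294 for Grin2b to 0.984 for Gria2 probe set 1. With the set of arrays described above as a block 0 of 13 passed as well, against 0.0107% of all, and 0 at an unadjusted p, against 8.17%. With no filter 0 of 19 passed, against 0.905% of all, and 1 at an unadjusted p, again Grin2b, against 12.8%. With no filter and the block it was 0 of 19, against 0.00322%, and 0 at an unadjusted p, against 6.93%.

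Among the AMPA subunits, Gria1, whose product takes part in activity-dependent insertion of receptors, had group means from 8.62 in untreated sham rats to 8.73 in sham rats given both drugs. Single rats ranged from 8.30 to 9.07, and the SD within a group averaged 0.17. Gria2 (probe set 1) was the steadiest of the probe sets tested by this measure. Its group means lay between 11.67 and 11.72, a span of 0.05, with a within-group SD of 0.08 and all 56 rats between 11.53 and 11.90. Gria3 (probe set 1) had group means from 10.67 in untreated lesioned rats to 10.84 in lesioned rats given L-dopa alone. For Gria4, whose product has fast kinetics and is typical of interneurons, probe set 1 had group means from 8.09 to 8.23. The extremes were sham rats given pramipexole alone and untreated lesioned rats.

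Among the NMDA subunits, the obligatory Grin1 (probe set 1) had group means from 7.46 in sham rats given pramipexole alone to 7.75 in lesioned rats given L-dopa alone. Grin2a (probe set 1), the subunit of fast-decaying receptors, spanned the widest range of means among the 13, from 7.45 ± 0.33 (SD, n = 7) in untreated sham rats to 7.77 ± 0.10 in lesioned rats given both drugs. The low end rests on untreated sham rats whose lowest value was 6.98 and median 7.56, and the groups overlap. Grin2b (probe set 1), the subunit of slowly decaying receptors and the common partner of Grin1 in the forebrain, ran from 7.74 ± 0.18 to 7.98 ± 0.08. Grin2c (probe set 1), in the forebrain found mainly in astrocytes and some interneurons, ran from 7.85 to 7.98. When the 8 group means were put in order, 0 of the gaps between neighbours exceeded the within-group SD in any of the 19 probe sets. That SD is of single rats and is wide beside a gap between sorted means, so this count does not test the order. No order of groups is read from the means. For Grin1 probe set 1, Grin2a and Grin2b the lowest group lies in sample numbers 38 to 56 and the highest in 1 to 37. Over all rats the lower numbers averaged higher by 0.14, 0.14 and 0.08 on these probe sets. The extremes of Gria1, Gria2 probe set 1 and Gria4 probe set 1 also cross the sets, with 0.04, 0.02 and 0.05. Such spans cannot be told apart from a step between the sets.

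**Figure D1:**
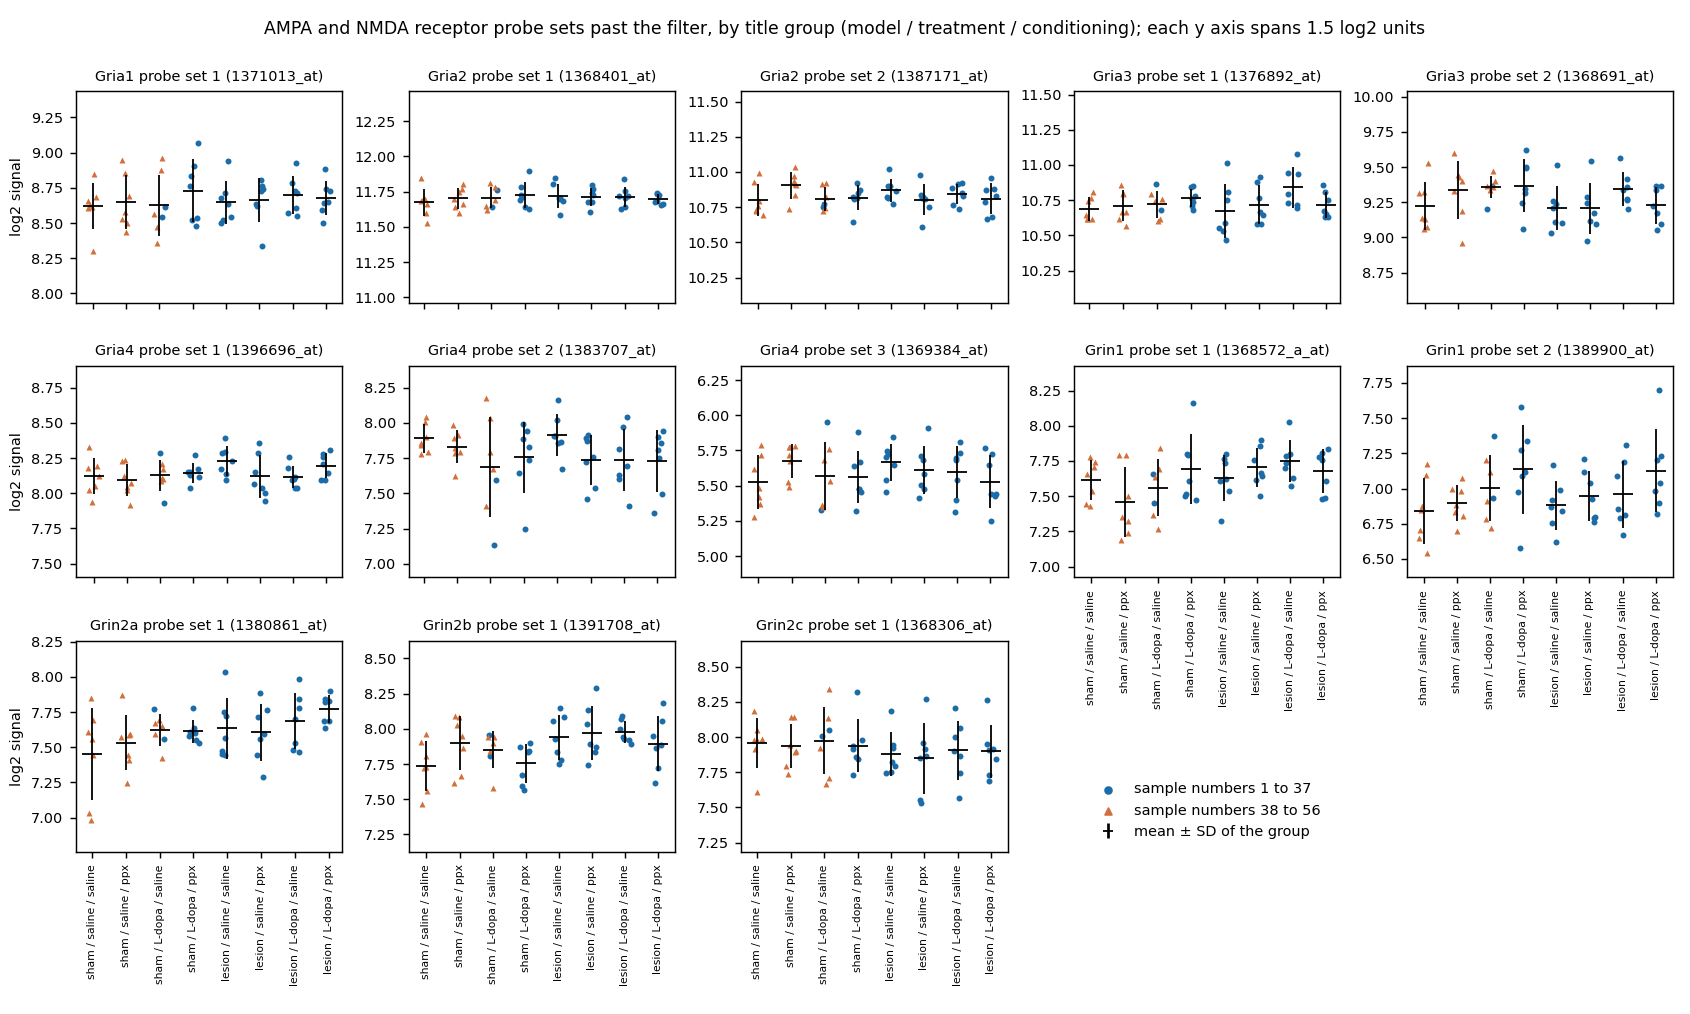
Log2 signal (y axis, 1.5 units high in each panel) of the 13 tested probe sets in the 8 groups (x axis); each point is 1 rat, circles are sample numbers 1 to 37, triangles 38 to 56, and bars show the group mean ± SD. Neighbouring groups overlap, with the narrowest spread for Gria2 probe set 1 (11.53 to 11.90) and the widest span of means for Grin2a (7.45 to 7.77). The groups at the ends of that Grin2a span lie in different sets of sample numbers.

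Probe sets of one gene were compared over the 56 rats after the cell means had been taken off, since agreement between them bears on how far a small shift of a single probe set can be read. Of 11 pairs, 3 correlated at an adjusted permutation p under 0.05 by both Pearson's r and Spearman's rho. The Gria3 probe sets agreed at r = 0.54 (permutation p = 6e-05, adjusted 0.00066) and rho = 0.50 (p = 0.00021). Without the 2 rats farthest from the median of probe set 1, the rule for each pair here, r was 0.45. Within sample numbers 1 to 37 it was 0.70 and within 38 to 56 only 0.16. The Gria2 pair gave r = 0.49 (p = 0.00033, adjusted 0.00121) and rho = 0.40 (p = 0.0043), with 0.41 without 2 rats, 0.43 in the lower numbers and 0.58 in the higher.

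For Grin2a, probe set 1 and the low-signal probe set 3 agreed at r = 0.51 (p = 0.00023, adjusted 0.00121) and rho = 0.53 (p = 0.00018). This pair held at 0.51 and 0.53 within the sets of numbers and at 0.52 without 2 rats. Grin2a probe set 2 correlated with them at 0.05 and -0.15. The Grin1 pair reached 0.28 (p = 0.0547, rho = 0.23, p = 0.104), with 0.40 in the lower numbers and 0.05 in the higher. The 3 probe sets of Gria4 gave 0.06, 0.28 and 0.14, the 2 of Grin2b 0.08 and the 2 of Grin2d -0.18. For Gria4, Grin1, Grin2b and Grin2d no pair passed the adjusted threshold, so a value from 1 of their probe sets is given for that probe set alone.

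**Figure D2:**
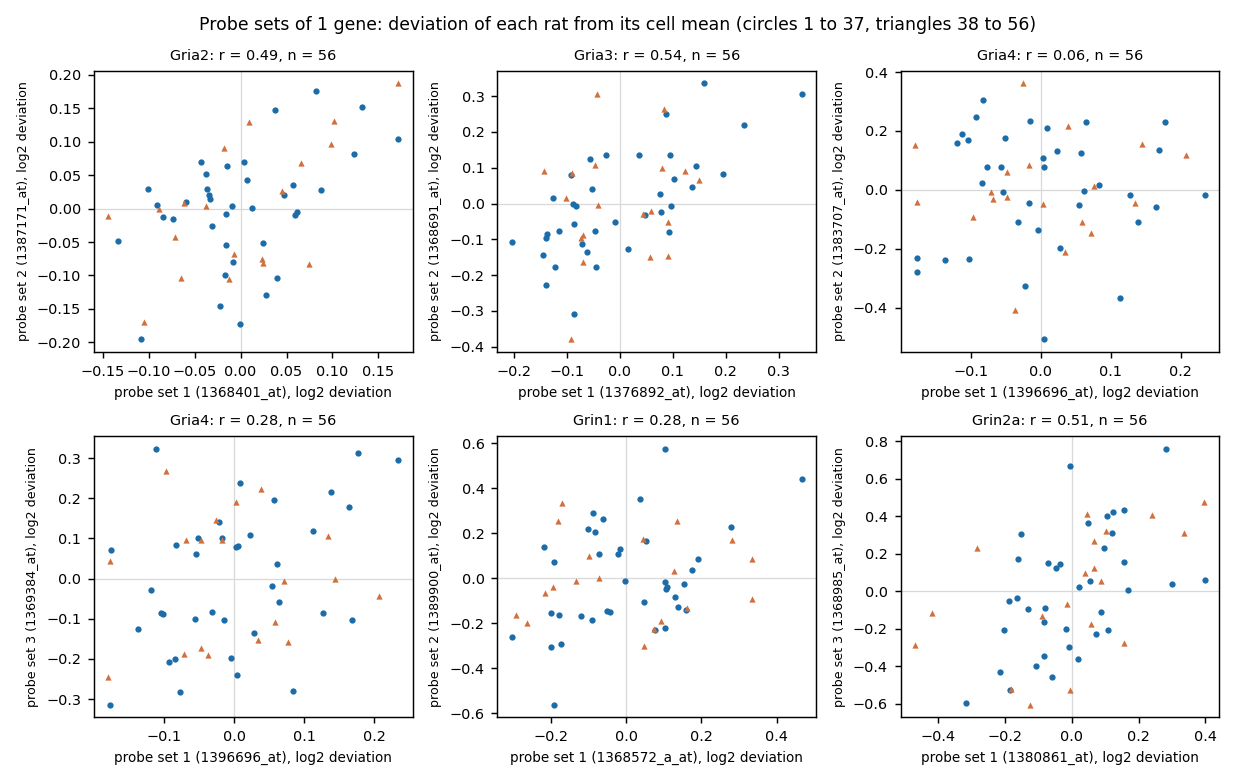
Deviation of each of the 56 rats from its cell mean (log2) on one probe set of a gene (x axis) against another of the same gene (y axis); circles are sample numbers 1 to 37 and triangles 38 to 56. The points rise loosely together for Gria2 (r = 0.49), Gria3 (0.54, but 0.16 within 38 to 56) and Grin2a (0.51). The r is lower for Gria4 (0.06 and 0.28) and Grin1 (0.28).

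L-dopa was compared with saline in lesioned rats that had no pramipexole (7 against 7), the question being what the chronic treatment leaves in the receptors. No subunit passed the test: 0 of 13 passed an adjusted p of 0.05, against 0.0161% of all probe sets tested. At an unadjusted p under 0.05 there was 1 of 13 (7.69%), against 12.8% of all. Of the members 8 had a higher and 5 a lower mean, with a median difference of 0.04 against 0.01 over all probe sets. Every 95% interval stayed within 0.388 on either side of 0.

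The 1 probe set was Gria3 probe set 1. Saline-treated lesioned rats had 10.47 at the lowest, 10.59 at the median and 11.02 at the highest, and those given L-dopa 10.70, 10.80 and 11.08. All 7 L-dopa rats lay above the saline mean, but 1 lay above all saline rats, so the groups overlapped. The difference was 0.17 ± 0.07, a 1.12-fold ratio with a 95% interval from 1.02 to 1.23 (limma, adjusted p = 0.269). The other Gria3 probe set differed by 0.14 ± 0.09 (adjusted p = 0.506), with 6 of 7 rats above the saline mean. In lesioned rats conditioned with pramipexole, probe set 1 differed by -0.00 ± 0.07 between L-dopa and saline, and in sham rats by 0.02 ± 0.07. For this probe set the interaction of L-dopa with pramipexole was -0.17 ± 0.09 (adjusted p = 0.736), and the L-dopa effect in lesioned rats minus that in sham rats was 0.15 ± 0.10 (adjusted p = 0.875).

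Measures of the tissue itself moved with this comparison. Of 12 cerebral cortex markers 11 had a higher mean in the L-dopa rats, with a median difference of 0.46. At an unadjusted p under 0.05, 4 of the 12 were higher, against 12.8% of all probe sets, and 0 of 12 were called. The cortex score ranged from -0.94 to 0.62 in saline and from -0.26 to 0.62 in L-dopa rats. Of 13 spiny neuron markers 0 were higher, with a median of -0.11 and 2 lower at an unadjusted p. Among 4 choroid plexus markers 0 were higher, with a median of -0.16 and 1 at an unadjusted p. The 3′ minus 5′ signal of the array's control probes for beta-actin and GAPDH, which rises as RNA is shorter, was 1.11 ± 0.09 (SD, n = 7) against 0.87 ± 0.10 (two-sided exact permutation test, p = 0.00117, adjusted 0.00816 over 7 comparisons). With that signal as a covariate the Gria3 difference was 0.09 (adjusted p = 0.897), and with the cortex score as a covariate 0.09 (adjusted p = 0.563). The part of these measures in the Gria3 value was not tested further, and in bulk tissue fewer cells of a type and less RNA for each cell cannot be told apart.

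In the same comparison the AMPA subunit Gria2 had a difference of -0.00 ± 0.05 on probe set 1 and -0.03 ± 0.05 on probe set 2. Gria1 differed by 0.05 ± 0.09. Gria4 differed by -0.11 ± 0.06 on probe set 1 (adjusted p = 0.437), -0.18 ± 0.11 on probe set 2 and -0.07 ± 0.10 on probe set 3. The NMDA subunits Grin1 (0.12 ± 0.10 and 0.08 ± 0.12), Grin2a (0.05 ± 0.10), Grin2b (0.04 ± 0.09) and Grin2c (0.03 ± 0.11) each had a 95% interval that includes 0.

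In lesioned rats given pramipexole, L-dopa against saline called 0 of 13 members, against 0% of all probe sets, and 0 of 13 at an unadjusted p under 0.05, against 5.04%. The largest differences were Grin1 probe set 2 at 0.18 ± 0.12 (adjusted p = 0.987) and Grin2a probe set 1 at 0.16 ± 0.10 (adjusted p = 0.982). For Grin2a the 7 rats given both drugs ranged from 7.64 to 7.90 and the 7 given pramipexole alone from 7.29 to 7.89. All of the first lay above the mean of the second, and 1 above all of them. The 3′ minus 5′ signal was 1.06 ± 0.08 (SD, n = 7) with both drugs and 0.96 ± 0.08 with pramipexole alone, a difference of 0.0999 (two-sided exact permutation test, p = 0.0338, adjusted 0.0789 over 7 comparisons). Of 8 microglia markers tested 8 had a higher mean with both drugs, with a median difference of 0.50, 5 at an unadjusted p and 0 called. Without sample 2 it was 7 of 8, with a median of 0.10 and 0 at an unadjusted p, and again 0 of 13 members, against 4.15% of all. Among 4 choroid plexus markers 4 were higher with both drugs (median 0.26, 1 at an unadjusted p, 0 called). Without sample 2 their median was 0.39, with 3 at an unadjusted p. The part of these measures in the subunit values was not tested.

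Pramipexole conditioning against saline in lesioned rats without L-dopa called 0 of 13 members, against 0% of all, and 0 at an unadjusted p under 0.05, against 7.08%. The differences ran from -0.18 for Gria4 probe set 2 to 0.08 for Grin1 probe set 1. Here 11 of 12 cortex markers had a higher mean with pramipexole (median 0.25) and 3 of 13 spiny neuron markers (median -0.04), with 0 called. The 3′ minus 5′ signal was 0.96 ± 0.08 (SD, n = 7) with pramipexole and 0.87 ± 0.10 with saline (two-sided exact permutation test, p = 0.0775, adjusted 0.136). The part of these measures in the subunit values was not tested. In lesioned rats given L-dopa the count was 0 of 13, against 0.0161%, and 0 at an unadjusted p, against 5.82%. There the differences ran from -0.13 ± 0.07 for Gria3 probe set 1 (adjusted p = 0.852) to 0.17 ± 0.12 for Grin1 probe set 2. Of 12 cortex markers 1 had a higher mean with pramipexole in these rats, with a median of -0.24, and of 13 spiny neuron markers 13 had, with a median of 0.12; 0 of either list were called. Without sample 2 these medians were -0.23 and 0.11. The median over 8 microglia markers was 0.48 (8 higher, 5 at an unadjusted p, 0 called) and 0.05 without sample 2 (5 higher, 0 at an unadjusted p). Among 4 choroid plexus markers 3 were higher (median 0.28, highest 2.49, 1 at an unadjusted p, 0 called). Without sample 2 their median was 0.40, with 3 at an unadjusted p. The part of these cell markers in the subunit values was not tested.

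Averaged over L-dopa and saline rats, pramipexole called 0 of 13 members (0% of all) and no 95% interval of a member reached past 0.290 in size. For L-dopa averaged over conditioning the call count was also 0 (0.00537% of all), and the intervals stayed within 0.300. At an unadjusted p both averages had 0 of 13 members, against 6.37% and 10.3% of all.

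Rats given both drugs were set against rats given neither, all lesioned, a contrast that changes L-dopa and pramipexole together. Of 13 members 0 were called, against 0.0215% of all, and 1 had an unadjusted p under 0.05, against 12.4%. This was Grin1 probe set 2. The 7 rats without drugs ranged from 6.62 over a median of 6.87 to 7.17, and the 7 given both from 6.82 over 7.04 to 7.70. Of the treated rats 3 lay above all controls, and sample 1 stood highest at 7.70. The difference was 0.25 ± 0.12 (limma, adjusted p = 0.402), and without sample 1 it was 0.15. Without sample 2 it was 0.23 (adjusted p = 0.556), and 0 of 13 members had an unadjusted p under 0.05, against 9.69% of all. Grin1 probe set 1 differed by 0.05 ± 0.10.

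The 3′ minus 5′ signal again moved with the groups, at 1.06 ± 0.08 (SD, n = 7) with both drugs and 0.87 ± 0.10 with neither (two-sided exact permutation test, p = 0.00233, adjusted 0.00816). With it as a covariate the difference of Grin1 probe set 2 was -0.03 (adjusted p = 0.983). Of 12 cortex markers 9 had a higher mean with both drugs, with a median difference of 0.16, and of 13 spiny neuron markers 6 had, with a median of -0.01. Of 8 microglia markers 8 were higher, with a median of 0.54 and 3 at an unadjusted p. The microglia score ranged from -0.20 to 2.75 with both drugs and from -0.36 to 0.03 with neither, the top value being sample 2. Without that rat 7 of 8 microglia markers were higher, with a median of 0.05 and 0 at an unadjusted p. In these lists 0 markers were called, and their part in the subunit values was not tested.

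The interaction of both drugs in lesioned rats asks whether L-dopa alters the effect of pramipexole. It called 0 of 13 members, against 0% of all, with 1 at an unadjusted p under 0.05, against 6.98%. Gria4 probe set 1 had 8.09, 8.23 and 8.39 (lowest, median, highest) with neither drug, 7.94, 8.07 and 8.35 with pramipexole, 8.03, 8.10 and 8.26 with L-dopa, and 8.09, 8.21 and 8.31 with both. The means with a single drug, 8.12 and 8.12, lay below those with neither (8.23) or both (8.20), and the 4 groups overlapped. The interaction was 0.19 ± 0.09 (adjusted p = 0.714). Without sample 2 it was 0.21 (adjusted p = 0.709). For the other Gria4 probe sets it was 0.17 ± 0.15 on probe set 2 and -0.01 ± 0.14 on probe set 3. The interaction was negative for 11 of 12 cortex markers, with a median of -0.51, and positive for 13 of 13 spiny neuron markers (0.15) and 8 of 8 microglia markers (0.46, or 0.08 without sample 2). For choroid plexus markers the interaction was positive in 4 of 4 (median 0.43, highest 3.64, 2 at an unadjusted p). Without sample 2 their median was 0.55. Of these lists 0 markers were called, and their part in the Gria4 value was not tested.

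Sham rats allowed the same drugs to be read without nigral loss, inside sample numbers 38 to 56. L-dopa against saline (5 against 7) called 0 of 13 members, against 0% of all, and 0 at an unadjusted p, against 6.64%. The difference of smallest p was Gria3 probe set 2 at 0.16 ± 0.09 (adjusted p = 0.795), with all 5 L-dopa rats, at 9.34 to 9.47, above the saline mean of 9.22. Pramipexole against saline (7 against 7) called 0 of 13, against 0%, and 0 at an unadjusted p, against 6.32%. Gria2 probe set 2 differed by 0.10 ± 0.05 (adjusted p = 0.794) and Grin2b probe set 1 by 0.16 ± 0.09 (adjusted p = 0.803). The Grin2b values were 7.47, 7.73 and 7.96 with saline and 7.62, 7.95 and 8.09 with pramipexole, and 3 pramipexole rats lay above all saline rats. Astrocyte markers also differed here: 1 of 9 had a higher mean with pramipexole, with a median of -0.08 and 2 lower at an unadjusted p. Among 11 oligodendrocyte markers 0 had a higher mean, with a median of -0.12. In both lists 0 markers were called, and their part in the subunit values was not tested.

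The effect of pramipexole in lesioned rats minus that in sham rats, both without L-dopa, called 0 of 13 members, against 0% of all, with 1 at an unadjusted p under 0.05, against 6.7%. Gria2 probe set 2 had 10.70, 10.76 and 10.99 (lowest, median, highest) in sham rats with saline and 10.74, 10.91 and 11.04 with pramipexole. In lesioned rats it had 10.77, 10.86 and 11.02 with saline and 10.61, 10.82 and 10.98 with pramipexole, so all 4 groups overlapped. It averaged 10.80 with saline and 10.91 with pramipexole in sham rats, and 10.87 and 10.80 in lesioned rats. The effects differed by -0.17 ± 0.08 (adjusted p = 0.696). Gria2 probe set 1 gave -0.03 ± 0.06 in the same comparison. The difference of effects was positive for 7 of 9 astrocyte markers (median 0.13, 1 at an unadjusted p) and 10 of 12 cortex markers (median 0.15). In these lists 0 markers were called, and their part in the Gria2 values was not tested. For L-dopa the difference of effects, again taken across the sets, called 0 of 13 members, against 0% of all, and 0 at an unadjusted p, against 6.07%.

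**Figure D3:**
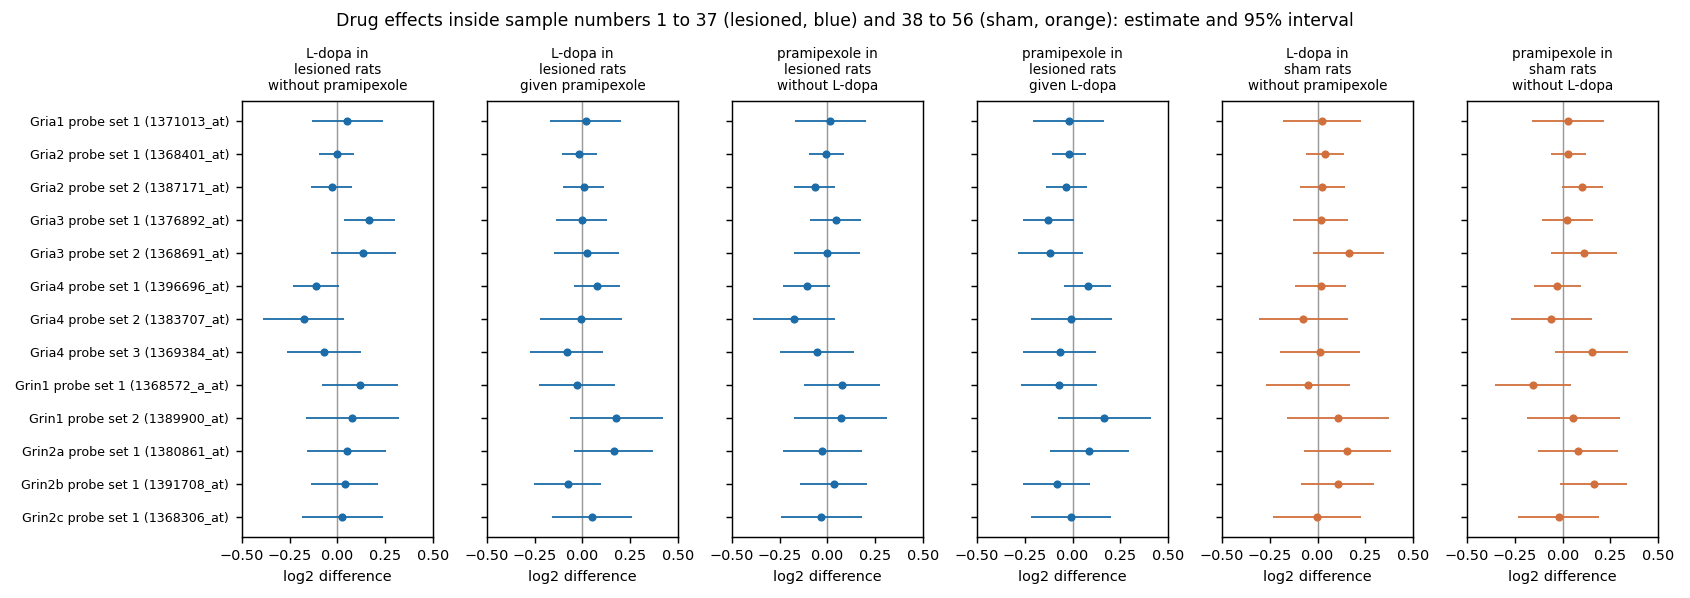
Log2 difference (x axis) with its 95% interval for the 13 tested probe sets (y axis) in 6 drug comparisons; blue panels are lesioned rats in sample numbers 1 to 37 and orange panels sham rats in 38 to 56. The interval of Gria3 probe set 1 under L-dopa without pramipexole (0.17 ± 0.07) leaves 0, and none in these 6 panels reaches past 0.42.

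Pramipexole in sham rats given L-dopa could be read inside sample numbers 1 to 37 only against 2 rats. It called 0 of 13 members, against 0% of all, with 1 at an unadjusted p, against 3.44%. Gria4 probe set 2 was 7.13 in sample 36 and 7.59 in sample 37, and from 7.25 over a median of 7.83 to 7.99 in the 7 rats given both drugs. The difference was 0.39 ± 0.16 (adjusted p = 1). It was 0.16 without sample 36, 0.62 without sample 37 and 0.07 when all 7 sham L-dopa rats were used. The same 2 rats against the 5 of their group in sample numbers 38 to 56, which had 7.41 to 8.18, differed by -0.45 ± 0.17 (adjusted p = 1), by -0.22 without sample 36 and by -0.68 without sample 37. That step between the sets of numbers called 0 of 13 members, against 0.0859% of all, and had 1 at an unadjusted p, against 3.81%.

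Inside one set of numbers, lesioned and sham rats given L-dopa alone stood at 7 against 2, a comparison that was not run. With 7 rats on each side, the lesion could be compared only where both drugs had been given. There 0 of 13 members were called, against 0% of all, and 0 had an unadjusted p under 0.05, against 6.79%. Grin2a differed by 0.16 ± 0.10 (adjusted p = 0.816) and Grin2b by 0.14 ± 0.09 (adjusted p = 0.801). For Grin2a the lesioned rats had 7.64, 7.82 and 7.90 and the sham rats 7.53, 7.60 and 7.78, with 4 lesioned rats above all sham rats. For Grin2b they had 7.61, 7.88 and 8.18 against 7.57, 7.84 and 7.90, with 3 above all sham rats. Gria3 probe set 2 had the largest difference the other way, -0.14 ± 0.09, with 0 of 7 lesioned rats above the sham mean. Cell markers also differed in mean here. Of 13 spiny neuron markers 10 had a higher mean in lesioned rats (median 0.10, 2 at an unadjusted p), of 12 cortex markers 4 (median -0.13) and of 9 astrocyte markers 2 (median -0.05). Of 8 microglia markers 8 had, with a median of 0.50 and 5 at an unadjusted p, whereas without sample 2 it was 5 of 8, with a median of 0.04 and 0 at an unadjusted p. None of these markers was called, and their part in the subunit values was not tested.

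In a comparison of all rats (28 lesioned against 28 sham), where lesion and set of numbers largely coincide, 0 of 13 members were called, against 5.07% of all, and 3 had an unadjusted p under 0.05, against 19.7%. Grin2b averaged 7.95 in lesioned and 7.81 in sham rats, a difference of 0.14 ± 0.04 (adjusted p = 0.0514). Grin2a differed by 0.12 ± 0.05 (adjusted p = 0.169) and Grin1 probe set 1 by 0.11 ± 0.05 (adjusted p = 0.189). With the set of numbers as a block, Grin2b differed by 0.11 ± 0.10 (adjusted p = 0.998) and 0% of all probe sets were called. There 1 of 13 members had an unadjusted p under 0.05, against 4.31% of all: Gria4 probe set 2 at 0.30 ± 0.12 (adjusted p = 0.998), against -0.01 ± 0.06 without the block. That estimate draws on samples 36 and 37, whose low values are given above. Lesion and set of numbers cannot be told apart for most rats.

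The subunits were then set against 4 measures of the tissue over the 56 rats, with cell means taken off, because such measures had moved with some comparisons. They were the 3′ minus 5′ signal and the mean centred signals of cerebral cortex, spiny neuron and astrocyte markers. All come from the same arrays as the subunits, and the cortex and spiny scores were themselves related at r = -0.78. Of 52 relations, 16 had an adjusted permutation p under 0.05 by both r and rho, 9 of them positive. The share of all tested probe sets with an r as far out or farther on the same side ran over these 16 from 0.263% to 10.9%, so a relation of this kind was common for some of the measures.

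Gria3 and Grin2a correlated with the cortex markers, as did Gria2 probe set 1 at a lower r of 0.34 (rho 0.36, adjusted permutation p = 0.0426 and 0.0318), a value that 10.9% of all probe sets reached. For Gria3 probe set 1 r was 0.71 and rho 0.71 (each permutation p = 1e-05, the smallest that could be reached, adjusted 0.000173). It was 0.71 without 2 rats, 0.77 in sample numbers 1 to 37 and 0.55 in 38 to 56. The 2 rats left out, here and below, are those farthest from the median of the tissue measure. Among all probe sets tested 2.2% had an r at least as high. Gria3 probe set 2 gave 0.62 (rho 0.61) and Grin2a 0.62 (rho 0.57), each with an adjusted permutation p of 0.00026 for r, and 3.35% and 3.37% of all probe sets had an r at least as high. For Grin2a r was 0.56 without 2 rats, 0.68 in the lower and 0.58 in the higher numbers. Against the spiny markers the same 3 probe sets were negative, at -0.61, -0.56 and -0.44 (adjusted permutation p = 0.000468, 0.00026 and 0.00991), and 2.62%, 3.61% and 6.32% of all were at or below these. For Gria1 and Gria4 probe set 1 the r with the cortex score was 0.10 and -0.28.

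Grin1 probe set 2 followed the 3′ minus 5′ signal at r = 0.65 and rho = 0.66 (each permutation p = 1e-05, adjusted 0.000173). It held at 0.64 without 2 rats, 0.66 in the lower and 0.68 in the higher numbers, and 0.263% of all probe sets had an r at least as high. Grin1 probe set 1 was related at 0.41 (p = 0.00434, adjusted 0.0133), with rho 0.32 (adjusted p = 0.0676), and it was 0.67 in the lower numbers but 0.09 in the higher. Gria4 probe set 2 ran the other way, at -0.50 (adjusted permutation p = 0.00128; rho -0.45), with -0.68 and -0.21 within the sets, and 3.8% of all were at or below it. Gria1 was related at 0.48 (adjusted permutation p = 0.00345; rho 0.39, adjusted 0.0203), with 0.46 and 0.50 within the sets, 0.38 without 2 rats, and 3.82% of all at least as high. The difference in r between probe sets of one gene was not tested.

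Grin2c correlated with the astrocyte markers from rat to rat, at r = 0.57 (permutation p = 4e-05, adjusted 0.00026) and rho = 0.45 (p = 0.00164), with 0.49 without 2 rats. It was 0.71 in the lower numbers and 0.27 in the higher, and 1.42% of all probe sets had an r at least as high. Grin2c also followed the 3′ minus 5′ signal at 0.55 (rho 0.52, adjusted permutation p = 0.00026 for r, 1.6% of all at least as high). This signal and the astrocyte score were related at 0.44, and the contributions were not separated, here or for the next 2 probe sets. Grin1 probe set 2 was related to the astrocyte markers at 0.53 (adjusted permutation p = 0.00078; rho 0.39, adjusted 0.0203), with 0.61 and 0.27 within the sets and 0.41 without 2 rats. Gria4 probe set 2 stood at -0.53 (adjusted permutation p = 0.000567; rho -0.49, adjusted 0.00196), with -0.47 and -0.70 within the sets and -0.42 without 2 rats. Of all probe sets 2.5% and 2.68% were as far out. Grin2b was negative against the astrocyte markers at -0.57 (p = 8e-05, adjusted 0.000462; rho -0.52, p = 0.00026), with -0.51 and -0.74 within the sets and -0.52 without 2 rats, and 1.62% of all were at or below it. Gria2 probe set 2 was negative at -0.64 (adjusted permutation p = 0.000173; rho -0.55), with -0.77 and -0.37 within the sets and 0.596% of all at or below it, whereas the other Gria2 probe set stood at -0.03.

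**Figure D4:**
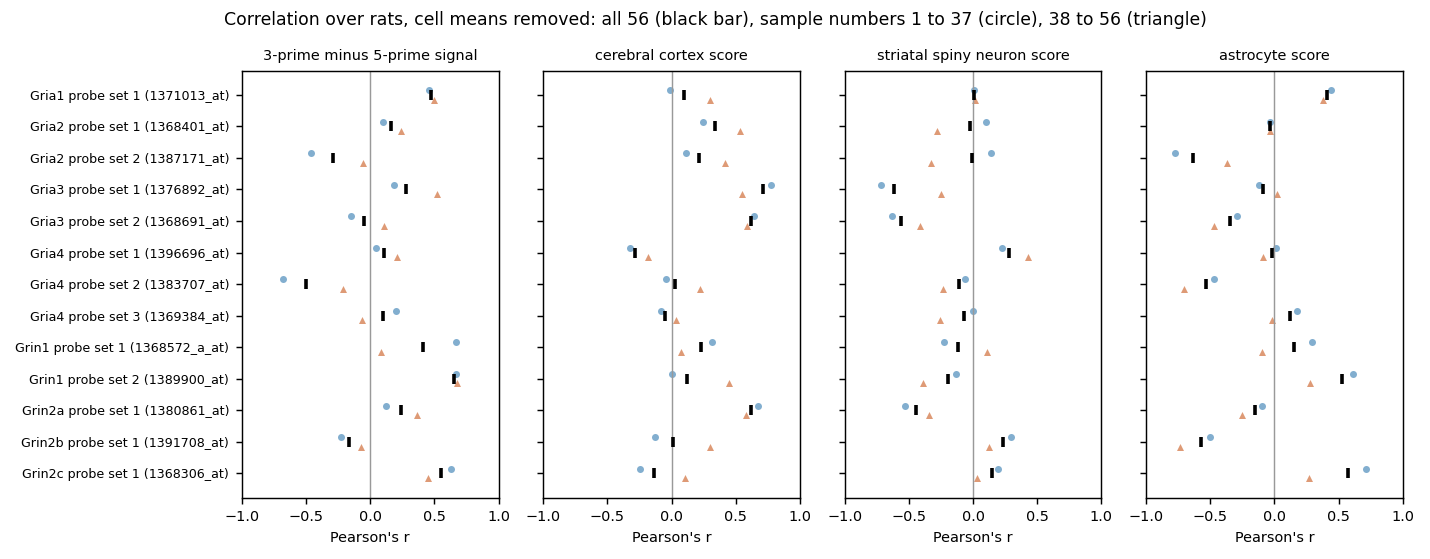
Pearson's r over rats (x axis) between each tested probe set (y axis) and 4 measures of the tissue, with cell means taken off; black bars are all 56 rats, circles sample numbers 1 to 37 and triangles 38 to 56. Both Gria3 probe sets and Grin2a stand to the right for the cortex score (0.62 to 0.71) and to the left for the spiny score, and Grin1 probe set 2 stands at 0.65 for the 3′ minus 5′ signal.

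The 8 genes with a tested probe set were not one unit over rats. Among the 28 pairs of their leading probe sets, 18 had a positive r, the median was 0.09, and the pairs ran from -0.28 (Gria1 with Grin2b) to 0.54 (Gria3 with Grin2a). Gria1 and Grin2c came next at 0.53. All values share their arrays.

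Across the 56 rats the genes of most like pattern, among 10162, were found by Pearson's r with cell means taken off, as a description. Each gene entered through its tested probe set of highest mean signal. For Gria2 they were Prnp (0.78), Zwint (0.75) and Cox7b (0.73). For Gria3 they were Sorl1 (0.77), Nptxr, the neuronal pentraxin receptor (0.77), and Dlgap1, a scaffold of the postsynaptic density (0.77). Grin2a had Habp4 (0.74) and Grin2b had Cacna2d1, a calcium channel subunit (0.72). For Grin2c they were Cldn10 (0.73), Mmd2 (0.73) and Ndp (0.71). Gria1 had Baz2b (0.68), Grin1 Lsm7 (0.63) and Gria4 Dclk2 (0.54).

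Proteins that accompany the receptors were counted from lists, each gene by its tested probe set of highest mean signal, whereas the shares of all count every tested probe set. The lists were chosen with earlier results of these data known, so the counts describe the lists and do not test them. Of 16 tested auxiliary subunits, 0 were called in any drug comparison. Under L-dopa in lesioned rats without pramipexole, 6 were higher and 2 lower at an unadjusted p under 0.05, against 12.8% of all probe sets, with a list median of 0.09 against 0.01. In this comparison the cortex markers (median 0.46) and the 3′ minus 5′ signal (adjusted exact p = 0.00816) also moved, and their part in these counts was not tested. Cacng2, or stargazin, which traffics AMPA receptors to the synapse, differed by 0.35 ± 0.10 (adjusted p = 0.166) and Cpt1c by 0.22 ± 0.08 (adjusted p = 0.229). In sham rats without pramipexole, Cacng4 differed by 0.64 ± 0.15 under L-dopa (adjusted p = 0.24). The L-dopa effect on Cacng4 in lesioned rats minus that in sham rats was -0.57 ± 0.20 (adjusted p = 0.597), with the lesioned and sham effects from different sets of sample numbers.

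Of 23 tested genes for anchoring, trafficking, editing and phosphorylation of the receptors, 0 were called in any drug comparison, where at most 0.0215% of all probe sets were. Under L-dopa in lesioned rats without pramipexole 6 were higher and 1 lower at an unadjusted p, against 12.8% of all, with a median of 0.02, and the same tissue measures moved. With both drugs against neither it was 2 higher and 2 lower, against 12.4%. In that comparison Dlg2, a scaffold of NMDA receptors, differed by -0.36 ± 0.12 (adjusted p = 0.234). Of the kainate and delta receptor list 4 genes were tested and 0 were called, and Grik1 had the difference of smallest p in that comparison, 0.23 ± 0.14.

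The 6 probe sets under the filter held Grin2d, a subunit of slow receptors typical of interneurons, and Grin3a. Grin3a averaged 4.92 ± 0.42 (SD, n = 37) in sample numbers 1 to 37 and 4.86 ± 0.26 (n = 19) in 38 to 56. Grin2d probe set 1 averaged 3.32 ± 0.49 and 3.58 ± 0.56. Grin2d probe set 2 averaged 3.59 ± 0.62 and 2.60 ± 1.26, with 6 rats of the higher numbers below all rats of the lower numbers, and 8 rats of the lower numbers above all of the higher. Grin2a probe set 2 averaged 4.54 ± 0.53 and 4.79 ± 0.47, and Grin2b probe set 2 4.74 ± 0.31 and 4.81 ± 0.27. Grin2a probe set 3, which correlated with the tested probe set 1 at r = 0.51, averaged 4.27 ± 0.36 and 4.20 ± 0.35. At these signals an array without detection calls does not tell a low level from background.

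**Figure D5:**
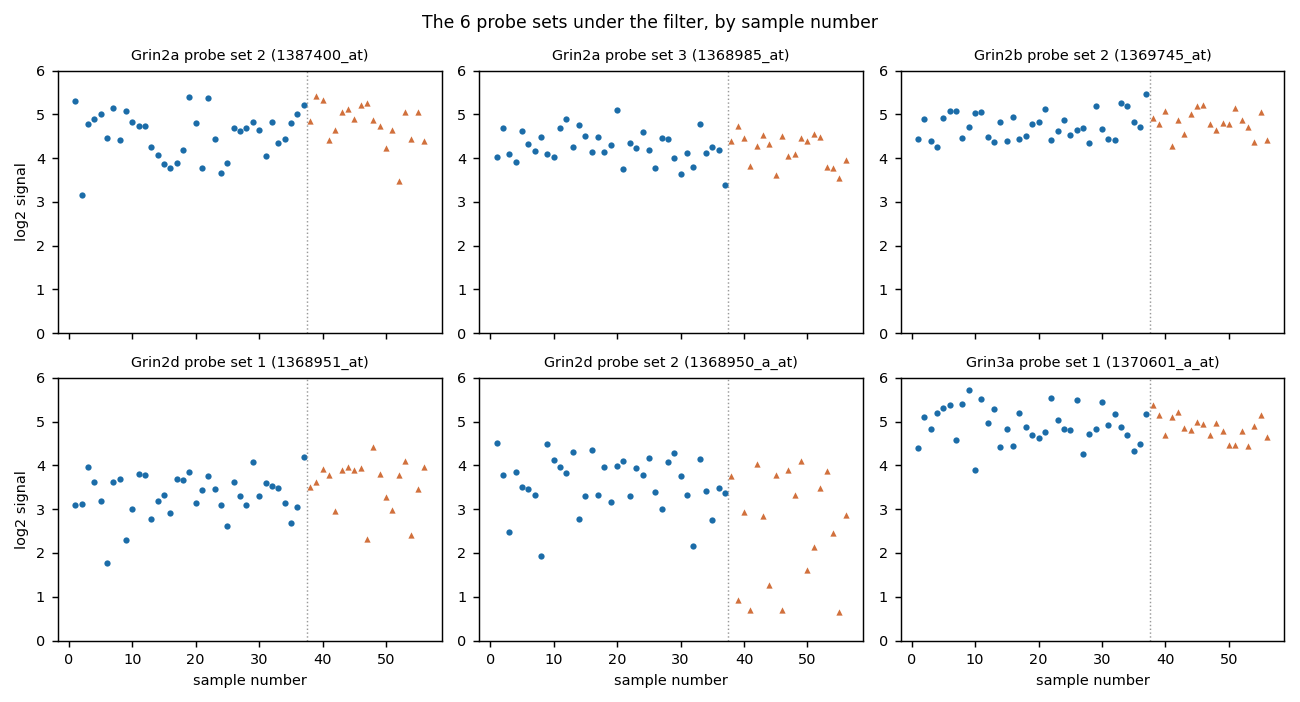
Log2 signal (y axis) of the 6 probe sets under the filter against sample number (x axis); circles are numbers 1 to 37, triangles 38 to 56, and the dotted line marks the step between them. Grin2d probe set 2 spreads down to 0.65 to the right of the line, while to its left the lowest rat is at 1.94.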

How the data were processed

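Total RNA of the dorsal striatum was hybridised to Affymetrix Rat230_2 arrays after a 3′ IVT labelling, per the labels' protocols. The deposited values are log2 signals made by the authors with MAS5, per the submitters' processing notes, with version and scaling target not given in the sources used here. Unlogged, they have a mean, trimmed by 2%, of 150.042 to 150.046 on every array, so arrays had been scaled to one level. They were used as deposited.

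Of 31042 probe sets that are not controls, the 18625 with a mean above the 40th percentile were tested with limma 3.58.1 in R 4.3.3 on the means of 9 cells, all 56 arrays sharing one estimate of the spread. The F test over 8 groups and the lesion over all rats used the 8 groups. Calls needed a Benjamini-Hochberg adjusted p under 0.05, and tests were two-sided. Each array is a separate rat. Correlations used 100000 permutations. The pipeline was tested on simulated data.

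Values by group were printed for the probe set of highest mean for each gene and for probe sets past an unadjusted p of 0.05 inside a set of numbers. Of the lists, up to 2 genes of smallest p were eligible in each comparison, and the 3 genes of most like pattern for each subunit. The members and lists were chosen with earlier results of these data known. The lesion over all rats, the correlations with tissue measures, leaving out rats from the 3′ minus 5′ comparison and the marker lists without sample 2 were added after seeing the data. Alternatives were the filter, quantile normalization, 16 added to the unlogged signal, a variance trend, array weights, undivided groups, fewer cells, covariates for RNA length and cortex score, sample 2 left out, and each rat left out in turn.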

Additional observations from a re-analysis of the deposited data

Results flagged for a closer look

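Among the leading probe sets of the 8 tested genes, 64 tests for a rat far from the rest of its group gave 4, and chance alone would give about 1 in 20. In lesioned rats given pramipexole alone, Gria1 was 8.34 in sample 17 and between 8.62 and 8.81 in the other 6 rats. In sham rats given both drugs, Grin2a was 7.78 in sample 34 and between 7.53 and 7.63 in the others. In the same group Grin2c was 8.32 in sample 29 and between 7.73 and 7.98 in the others. In the 5 sham rats given L-dopa alone in sample numbers 38 to 56, Grin2b was 7.58 in sample 40 and between 7.85 and 7.94 in the others. These are 4 different rats.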

How the results depend on the processing

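The count of members called was 0 in 15 comparisons and in the F test under each alternative run, and 533 of 552 counts under alternatives equalled the count reported. The other 19 belong to the lesion over all rats, where Grin2b was called, so that the count was 1 in place of 0, with the filter at the 60th percentile (adjusted p = 0.0443), with 16 added to the signal (0.0497) and with the cortex score as a covariate (0.0476). Leaving out 1 rat gave 0 to 1, with 1 for 16 of 56 rats. With the set of numbers as a block its adjusted p was 0.998. Grin1 probe set 2 with both drugs against neither turned to -0.026 with the RNA covariate. Leaving out 1 rat gave 0.15 to 0.30 there, 0.13 to 0.22 for Gria3 probe set 1 under L-dopa in lesioned rats, 0.16 to 0.23 for the interaction of Gria4 probe set 1 and -0.20 to -0.14 for the difference of effects of Gria2 probe set 2. For Gria4 probe set 2 it gave 0.16 to 0.62 for pramipexole in sham rats given L-dopa. The 3′ minus 5′ signal of lesioned rats given pramipexole differed by 0.0774 to 0.118 under L-dopa with 1 rat left out (exact p from 0.0122 to 0.0693). Under pramipexole without L-dopa it was 0.0586 to 0.114 (exact p from 0.0204 to 0.157), and in sham rats L-dopa gave -0.0318 to 0.0631. No paired analysis was possible because the sample numbers are not shared between groups. The number of arrays limits precision: the widest member interval in the lesioned drug comparisons reached 0.489.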
